A study of Mus musculus with 6 samples.

Results

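The 43 genes described here encode cyclins, cyclin-dependent kinases (CDKs), CDK inhibitors, E2F factors and RB family proteins. They were chosen by name, each as a row of the deposited count table with exactly that symbol, and make up 43 of the 13809 genes in that table. The libraries came from wild-type (WT) mouse embryos and from embryos homozygous for a *Pkm1* knockout (KO), both at embryonic day 18.5 (E18.5), with 3 libraries per genotype. The knockout is a germline CRISPR/Cas9 deletion in the exon that only the *Pkm1* isoform of pyruvate kinase M uses, so it is present in every cell of the embryo and not only in cardiomyocytes. It was made in BDF1 zygotes, the homozygotes came from crosses of heterozygotes, and they die soon after birth. The study describes the tissue as ventricle, the sample labels call it heart, and neither names a further treatment. RNA-seq was done in the study to ask which genes change when PKM1, an enzyme of the last step of glycolysis, is lost from the embryonic heart, where proliferation of cardiomyocytes was its main concern.

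Cyclins are regulatory subunits that switch on CDKs. In G1, D-type cyclins with CDK4 or CDK6 phosphorylate RB and its relatives, which frees E2F factors to switch on genes for DNA replication. Cyclin E and cyclin A with CDK2 then drive S phase, and cyclin A and cyclin B with CDK1 drive entry into mitosis. Inhibitors of the Cip/Kip and INK4 families hold these kinases back, whereas cyclins C, H, K, L and T work with CDKs that act mainly on RNA polymerase II and splicing. Cyclin H with CDK7 also activates the CDKs of the cell cycle. Fetal cardiomyocytes still divide at this age, and most leave the cell cycle soon after birth.

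Levels are given as CPM, read counts scaled to the size of the library and between libraries by edgeR's TMM method. The headers of the table give only the genotype of a library, and the libraries are named WT a, b and c and KO a, b and c in column order. They held 15597756 to 19875546 counts in WT and 15567624 to 18577404 counts in KO, and 3 counts, taken as the limit of detection for counting error only, correspond to 0.153 to 0.197 CPM. The study describes the replicates as biological. WT c stood apart from the other WT libraries, with a mean chi-square per gene of 3.76 against WT a and 3.24 against WT b, compared with 1.56 between WT a and WT b and 1.62 to 1.88 among the KO libraries. *Pkm* itself was at 1294, 1296 and 1366 CPM in the WT libraries and at 547, 530.3 and 548.5 CPM in the KO libraries (log2 fold change -1.28, standard error 0.027, adjusted p = 1.47e-23, edgeR). The count of this gene pools the *Pkm1* and *Pkm2* isoforms. *Xist*, which is transcribed from the inactive X chromosome of female cells, was at 5.26 ± 0.50 CPM in WT compared with 2285 ± 47.6 CPM in KO (SD, n = 3 each), and no KO library had a count (0 in each) for *Ddx3y*, *Uty*, *Eif2s3y* or *Kdm5d* of the Y chromosome. Sex of the embryos and genotype therefore cannot be told apart in these data. None of the 43 genes lies on X or Y; they are spread over 16 autosomes.

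All 43 genes passed the filter on low counts, with 87 to 9363 counts in a library and WT means from 6.39 CPM (*Cdkn2d*) to 477 CPM (*Ccnd2*). A gene was called where the quasi-likelihood test of edgeR gave an adjusted p under 0.05, with the adjustment of Benjamini and Hochberg made over the 13804 genes tested. By this rule 9 of the 43 genes (20.9%) were lower in KO hearts, beside 15.7% of all genes tested, and 6 (14.0%) were higher, beside 14.6%. Together 15 genes (34.9%) were called, beside 30.3% of all genes tested. The WT and KO libraries did not overlap for 21 of the 43 genes (48.8%), compared with 42.4% of all genes tested. These shares are close to the background, so the set as a whole did not stand out by its number of calls. Without WT c, 10 of the 43 genes were lower and 7 higher. The median log2 fold change was -0.023 over the 43 genes and 0.0017 over all genes tested. The changes were small. Of the 15 called genes, 5 changed by at least 1.2-fold (*Cdkn2c* and *Cdkn3* lower, *Ccnf*, *Ccnt2* and *E2f2* higher) and 0 changed by at least 1.5-fold. The 28 genes that were not called had log2 fold changes between -0.13 and 0.15.

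**Figure D1:**
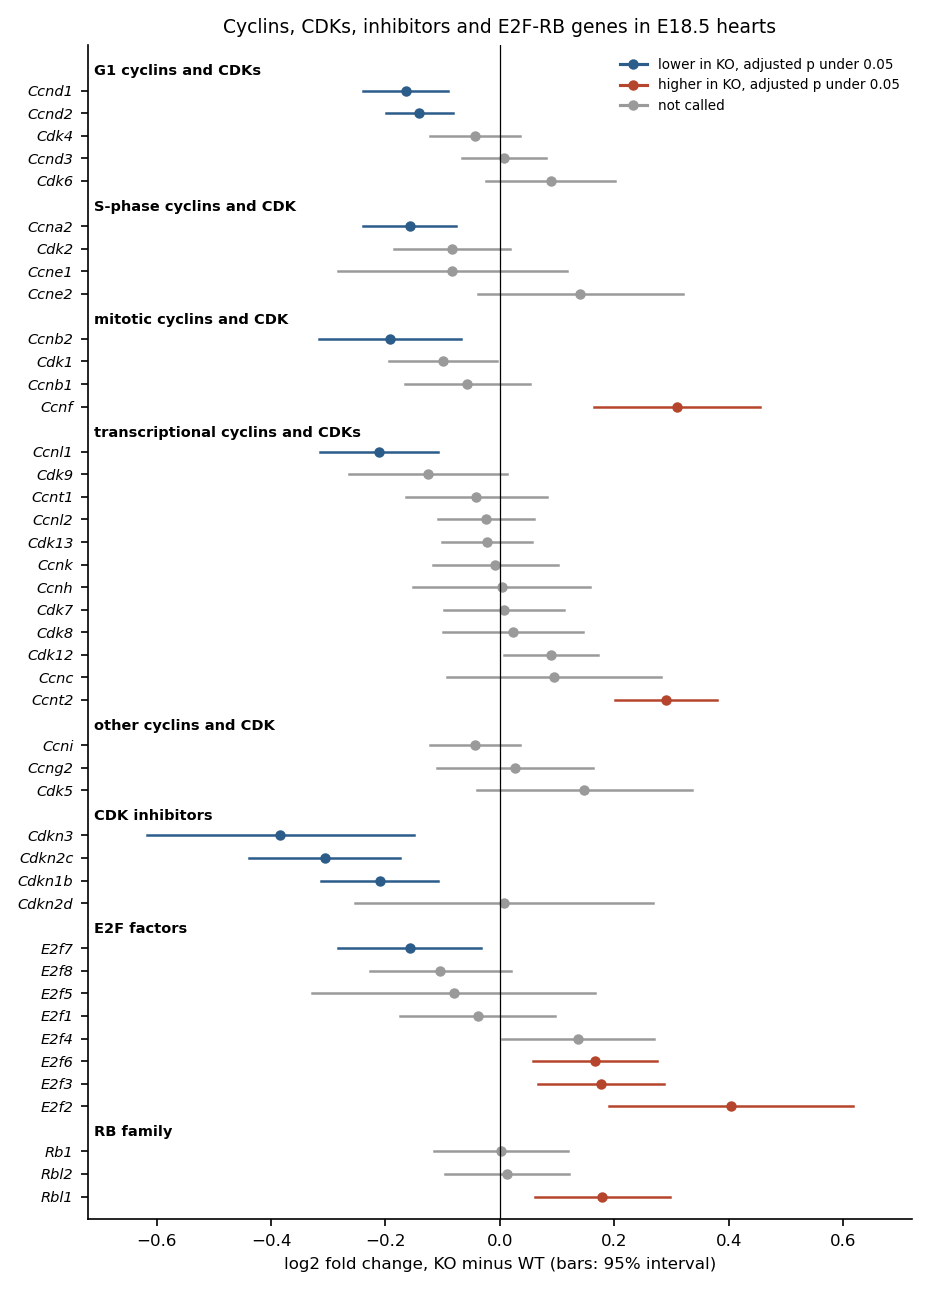
Log2 fold change of KO against WT hearts (horizontal axis) for each of the 43 genes, ordered by role; points are edgeR estimates from 3 libraries per genotype and bars are 95% intervals. The 9 lower genes include 3 of the 4 CDK inhibitors among the 43 genes, and 4 of the 6 higher genes are E2F or RB family members, while *E2f7* was lower. The background share of calls was 15.7% for a decrease and 14.6% for an increase. The calls of *Ccnb2*, *Cdkn3*, *E2f3*, *E2f6*, *E2f7* and *Rbl1* were each lost in at least 1 of 15 alternative analyses. *E2f7* was called in only 7 of these 15.

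Among the G1 genes, the cyclins D1 and D2 fell and cyclin D3 did not pass the test. *Ccnd1* (chromosome 7, 144929931 to 144939925, minus strand, GRCm38) was at 175, 170.9 and 182 CPM in WT a, b and c and at 159, 153.5 and 158.5 CPM in KO a, b and c. Every KO library lay below every WT library, and the KO mean was 10.9% lower (log2 fold change -0.16, standard error 0.036, adjusted p = 0.000986). *Ccnd2* (chromosome 6, 127125162 to 127152193, minus strand), the most counted of the 43 genes, was at 484, 478 and 469 CPM in WT and at 428, 443 and 426.5 CPM in KO. Its groups did not overlap either, with a mean 9.28% lower in KO (log2 fold change -0.14, standard error 0.028, adjusted p = 0.00039). *Ccnd3*, by contrast, measured 142, 139.9 and 141 CPM in WT and 141, 140.3 and 143.5 CPM in KO. The interval of its log2 fold change ran from -0.067 to 0.080, and whether it differed from the other D cyclins was not tested. As a share of the 3 D cyclins per exon length, *Ccnd3* was at 15.4% ± 0.07 in WT and 16.9% ± 0.22 in KO (SD, n = 3 each). The SD covers the libraries and not the choice of length. Per kilobase of its longest transcript *Ccnd3* was at 36.5 CPM in WT, compared with 16.1 CPM per kilobase of all exon bases.

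The kinases that these cyclins activate were not called. *Cdk4* was at 117.5, 115 and 119 CPM in WT and at 111, 115 and 114 CPM in KO, with groups that overlapped (log2 fold change -0.043, 95% interval -0.12 to 0.036, adjusted p = 0.42, edgeR). *Cdk6* was higher in each KO library, at 44.7 to 48.0 CPM compared with 42.0 to 43.8 CPM in WT, but missed the threshold (log2 fold change 0.089, adjusted p = 0.23, edgeR). Over the 5 G1 genes 2 were lower and 0 higher (beside 15.7% and 14.6% of all genes tested), with a median log2 fold change of -0.043. Exons of *Ccnd1*, *Cdk4* and *Ccnd2* share 23.4%, 19.7% and 7.9% of their bases with genes on the opposite strand. The gene opposite *Ccnd1*, LTO1, was measured at 7.51 (WT) and 9.47 (KO) CPM, and *Tspan31*, opposite *Cdk4*, at 47.2 (WT) and 45.6 (KO) CPM. Whether reads were counted by strand is not given in the sources used here, so part of a count could come from such a partner.

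In the S-phase group only cyclin A2 passed the test. *Ccna2* (chromosome 3, 36564865 to 36572150, minus strand), whose product partners CDK2 in S phase and CDK1 in G2, was at 138, 129 and 128 CPM in WT and at 121.5, 117 and 116 CPM in KO. The lowest WT library lay above the highest KO library, and the mean was 10.4% lower (log2 fold change -0.16, standard error 0.040, adjusted p = 0.0033, edgeR). Of its exon bases, 12.5% overlap *Exosc9* on the opposite strand, itself at 16.95 (WT) and 14.95 (KO) CPM. *Cdk2* was at 60.4, 59.7 and 57.4 CPM in WT and at 57.0, 55.7 and 54.8 CPM in KO. Its groups did not overlap, yet the difference missed the threshold (log2 fold change -0.084, adjusted p = 0.20, edgeR). *Ccne1*, for cyclin E1, was at 12.4, 12.9 and 11.0 CPM in WT and at 11.1, 11.0 and 12.2 CPM in KO, with overlapping groups and a 95% interval of -0.28 to 0.12 (log2). Its relative *Ccne2* had a log2 fold change of 0.14 (95% interval -0.039 to 0.32), and 17.4% of its exon bases overlap *Ints8*. Over the 4 genes 1 was lower and 0 higher (beside 15.7% and 14.6% of all genes tested), and their median log2 fold change was -0.084.

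The mitotic group held changes in both directions. *Ccnb2*, for a B-type cyclin, was at 39.8, 41.6 and 45.5 CPM in WT and at 37.8, 37.8 and 35.4 CPM in KO. The groups did not overlap and the KO mean was 12.6% lower (log2 fold change -0.19, standard error 0.061, adjusted p = 0.017, edgeR). That call was lost without WT c (adjusted p = 0.072, edgeR) or without KO c (adjusted p = 0.098, edgeR). *Ccnb1*, for the other B-type cyclin measured, was at 74.2, 73.7 and 63.6 CPM in WT and at 69.5, 66.3 and 67.9 CPM in KO. WT c lay below all KO libraries here and the other 2 WT libraries lay above them, so the groups overlapped (log2 fold change -0.057, adjusted p = 0.45). Without WT c the log2 fold change of *Ccnb1* was -0.12 (adjusted p = 0.035, edgeR). Of its 50-base words, 23.4% also occur in other annotated genes, so its count could hold reads of near-identical copies.

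*Cdk1*, the kinase that drives mitosis, was at 71.7, 72.6 and 73.9 CPM in WT and at 68.6, 69.4 and 65.6 CPM in KO. Each KO library was below each WT library, but the adjusted p was 0.10 (log2 fold change -0.10, 95% interval -0.19 to -0.0059, edgeR). *Ccnf* (chromosome 17, 24222198 to 24251484, minus strand) encodes cyclin F, which does not activate a CDK but is the substrate receptor of a ubiquitin ligase that is active in G2. It went the other way, at 24.1, 22.9 and 22.3 CPM in WT and at 30.5, 26.3 and 28.9 CPM in KO. This was an increase of 23.8% (log2 fold change 0.31, standard error 0.071, adjusted p = 0.0014, edgeR), with no overlap between the groups. Of the 4 mitotic genes 1 was thus lower, 1 higher and 2 not called, beside 15.7% lower and 14.6% higher of all genes tested.

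**Figure D2:**
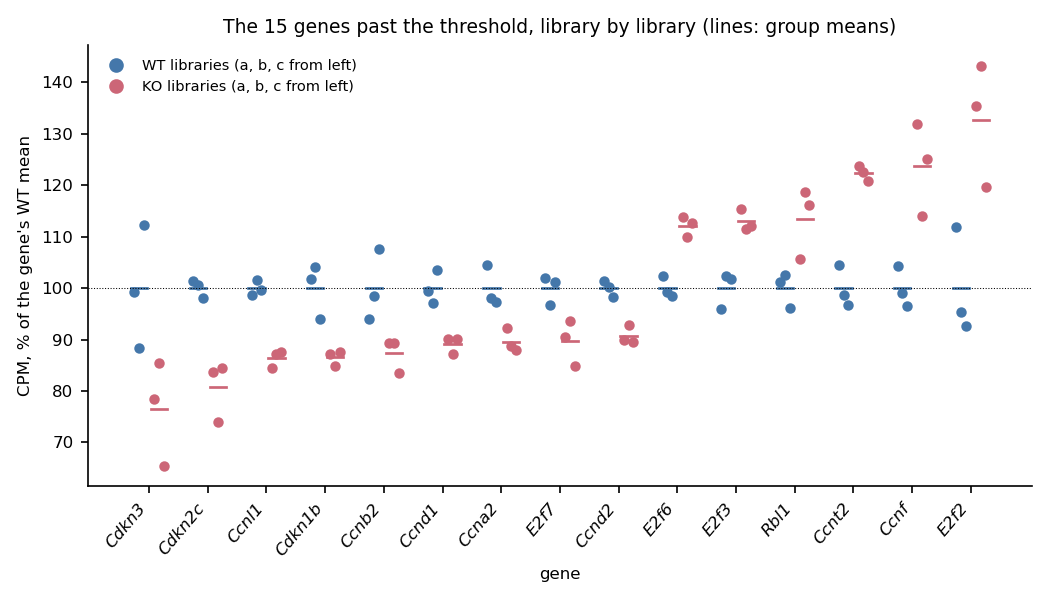
CPM of the 15 called genes in each library as a percentage of the gene's WT mean (vertical axis), with WT libraries on the left and KO libraries on the right of each gene and lines at the group means. No KO library overlapped the WT libraries for any of the 15 genes, which were called from these same libraries. Of all genes tested, called or not, 42.4% had no overlap. *Cdkn3* had the lowest and *E2f2* the highest KO mean relative to WT.

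Promoters of mitotic genes often carry CCAAT boxes, the pentamer bound by the trimeric factor NF-Y, together with a cell cycle homology region (CHR) near the start site, and the study tied the knockout to the NF-Y subunit NFYa. The promoter windows of 5 genes are therefore shown, the 4 mitotic genes and *Cdkn3*, which had the most CCAAT matches among the lower genes. They come from RefSeq on GRCm38.p6, the same assembly as the mm10 build the submitters name, and run 200 bases on the strand of the gene, with 150 bases before the annotated start. Capitals mark matches on either strand to CCAAT, to the CHR letters TTTGAA or TTCGAA, or to an E2F motif. The E2F letters searched were TTTCCCGC, TTTGGCGC, TTTCGCGC and TTTGCGCC. The window of *Ccnb2* spans chr9:70421505-70421704, that of *Ccnb1* chr13:100786437-100786636, that of *Ccnf* chr17:24251360-24251559 and that of *Cdk1* chr10:69352863-69353062, all on the minus strand, and that of *Cdkn3* spans chr14:46760391-46760590 on the plus strand.
*Ccnb2*: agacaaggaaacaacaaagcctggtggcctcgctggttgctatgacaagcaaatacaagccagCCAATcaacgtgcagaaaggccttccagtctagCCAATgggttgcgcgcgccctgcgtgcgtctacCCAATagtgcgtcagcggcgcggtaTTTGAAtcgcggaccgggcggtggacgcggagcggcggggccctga
*Cdk1*: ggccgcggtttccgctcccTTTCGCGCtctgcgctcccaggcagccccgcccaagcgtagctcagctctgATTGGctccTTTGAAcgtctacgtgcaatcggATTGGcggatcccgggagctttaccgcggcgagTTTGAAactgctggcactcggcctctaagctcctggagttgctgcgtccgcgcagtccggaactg
*Ccnb1*: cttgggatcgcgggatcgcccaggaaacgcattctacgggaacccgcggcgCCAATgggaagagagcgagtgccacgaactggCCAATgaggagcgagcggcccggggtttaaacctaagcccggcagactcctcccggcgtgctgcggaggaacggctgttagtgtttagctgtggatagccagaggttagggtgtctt
*Ccnf*: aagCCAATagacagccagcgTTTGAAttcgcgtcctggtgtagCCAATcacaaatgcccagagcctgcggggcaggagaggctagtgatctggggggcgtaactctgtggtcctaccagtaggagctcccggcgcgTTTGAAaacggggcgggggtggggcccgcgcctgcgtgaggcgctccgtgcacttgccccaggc
*Cdkn3*: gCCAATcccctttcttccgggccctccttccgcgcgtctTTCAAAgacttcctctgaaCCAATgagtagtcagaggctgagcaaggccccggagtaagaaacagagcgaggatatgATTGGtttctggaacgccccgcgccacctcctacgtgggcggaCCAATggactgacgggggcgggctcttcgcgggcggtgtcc

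*Ccnb2*, lower in KO, has 3 CCAAT boxes, at -87, -54 and -21 from the start, and a CHR match at 4. *Cdk1*, which was not called, has both kinds of element too, with CCAAT read on the opposite strand at -80 and -48, CHR matches at -71 and -15 and an E2F match at -131. *Ccnb1* has CCAAT boxes at -99 and -67 and no CHR match in its window. *Ccnf*, higher in KO, has 2 CCAAT boxes, at -147 and -107, and 2 CHR matches, at -130 and -14. CCAAT matches were thus present in windows of genes that fell, rose or were not called.

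Windows of 300 bases (250 before the start and 50 after it) were found for 34 of the 43 genes, 38 windows in all. None was found for *Ccna2*, *Ccnd1*, *Ccnd2*, *Ccne2*, *Ccnh*, *Cdk5*, *E2f4*, *E2f5* and *Rb1*. On either strand, CCAAT occurred in 52.6% of the 38 windows, compared with 37.1% of the windows of all genes tested. The GC box GGGCGG, which Sp factors bind, occurred in 89.5% compared with 61.0%, an E2F match in 15.8% compared with 3.86%, and a CHR match in 23.7% compared with 13.6%. Of the lower genes with a window, 5 of 6 had a CCAAT match, as had 4 of 6 higher genes and 10 of 22 genes that were not called. For E2F matches these counts were 1 of 6, 3 of 6 and 2 of 22. Such a match is a string of letters and was not tested as a binding site, and the counts by call are too few to compare.

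**Figure D3:**
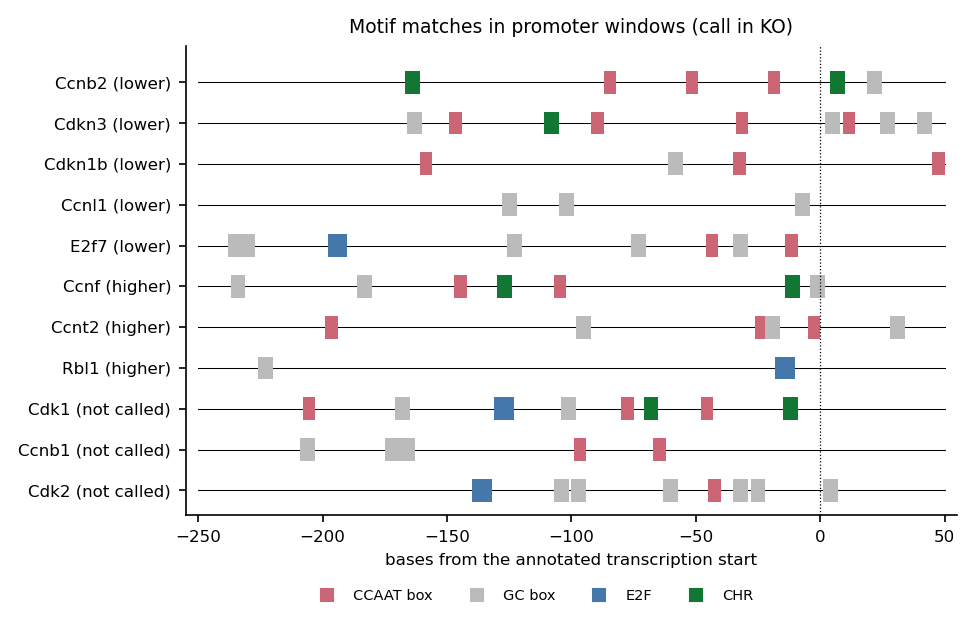
Positions of CCAAT, GC box, E2F and CHR matches on either strand in the promoter windows of 11 genes, in bases from the annotated transcription start (horizontal axis), with each gene's call in KO in brackets. *Ccnb2* (lower), *Ccnf* (higher), *Cdk1* and *Ccnb1* (both not called) each have at least 2 CCAAT matches within 150 bases before the start, and *Cdk1* has a further match upstream of these.

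Of the 4 CDK inhibitors 3 were lower, beside 15.7% of all genes tested, and their median log2 fold change was -0.26. *Cdkn2c* (chromosome 4, 109660876 to 109667189, minus strand) encodes p18, an INK4 inhibitor of CDK4 and CDK6. It was at 36.0, 35.7 and 34.8 CPM in WT and at 29.7, 26.3 and 30.0 CPM in KO. The decrease of 19.3% was well outside the spread of either group (log2 fold change -0.31, standard error 0.064, adjusted p = 0.000595, edgeR). *Cdkn1b* (chromosome 6, 134920401 to 134925513, plus strand) encodes p27, which binds several cyclin-CDK complexes and accumulates as cells leave the cycle. It measured 69.2, 70.8 and 63.9 CPM in WT and 59.3, 57.7 and 59.5 CPM in KO, 13.4% lower (log2 fold change -0.21, standard error 0.050, adjusted p = 0.0020, edgeR).

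*Cdkn3* encodes a phosphatase that removes the activating phosphate from CDKs, and its transcript peaks in G2 and mitosis. It was among the least counted genes, at 11.8, 10.5 and 13.3 CPM in WT and at 9.33, 10.2 and 7.78 CPM in KO. WT b and KO b were nearly level, and the mean decrease of 23.5% (log2 fold change -0.38, standard error 0.11, adjusted p = 0.012, edgeR) lost its call without KO c (adjusted p = 0.10). *Cdkn2d*, for the INK4 inhibitor p19, was at 5.72 to 6.79 CPM in WT and at 6.31 to 6.60 CPM in KO, and its 95% interval of -0.25 to 0.27 (log2) includes a change as large as that of *Cdkn1b*. Of the other inhibitors measured, *Cdkn1a*, for p21, was at 44.1 ± 2.07 CPM in WT and fell to 29.8 ± 2.76 CPM in KO (SD, n = 3 each; log2 fold change -0.57, adjusted p = 1.81e-07, edgeR). *Cdkn1c*, for p57, was at 87.7 ± 7.18 CPM in WT, compared with 89.6 ± 3.33 CPM in KO (SD, n = 3 each). *Cdkn2a* and *Cdkn2b* were not tested here.

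The 8 E2F factors act in different ways. E2F1, E2F2 and E2F3 are activators, E2F4 and E2F5 repress mainly together with RB relatives, E2F6 represses without them, and E2F7 and E2F8 are atypical repressors whose own genes are E2F targets. Among the activators, *E2f2* (chromosome 4, 136172394 to 136196057, plus strand) was at 10.9, 9.34 and 9.07 CPM in WT and at 13.2, 14.0 and 11.7 CPM in KO. This increase of 32.8% was the largest change upward among the 43 genes (log2 fold change 0.40, standard error 0.10, adjusted p = 0.0040, edgeR). *E2f3* was at 42.4, 45.3 and 45.0 CPM in WT and at 51.0, 49.3 and 49.5 CPM in KO, 13.0% higher (log2 fold change 0.18, standard error 0.053, adjusted p = 0.013, edgeR). Its call was lost without WT a (adjusted p = 0.069) or KO a (adjusted p = 0.063). *E2f1* did not pass, at 28.4, 30.1 and 32.7 CPM in WT and at 30.6, 28.9 and 28.9 CPM in KO, with a 95% interval of -0.17 to 0.097 (log2).

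*E2f6* was at 44.4, 43.0 and 42.7 CPM in WT and at 49.4, 47.7 and 48.8 CPM in KO, 12.1% higher and without overlap (log2 fold change 0.17, adjusted p = 0.018, edgeR). Its adjusted p rose to 0.058 with DESeq2, and to 0.067, 0.071 and 0.056 without WT b, KO a and KO c. *E2f7* was the lower gene with the largest adjusted p, at 37.3, 35.4 and 37.0 CPM in WT and at 33.1, 34.2 and 31.0 CPM in KO (log2 fold change -0.16, standard error 0.061, adjusted p = 0.0496). It was called in only 7 of 15 alternative analyses, with adjusted p values up to 0.21. Its close relative *E2f8* was at 36.4 to 39.0 CPM in WT and at 32.9 to 35.8 CPM in KO, lower in each KO library but not called (log2 fold change -0.10, adjusted p = 0.19). *E2f4* was at 27.5 to 28.8 CPM in WT and at 29.8 to 33.0 CPM in KO, also without overlap and not called (adjusted p = 0.11). *E2f5* had a 95% interval of -0.33 to 0.17 (log2). Over the group 1 gene was lower and 3 higher (beside 15.7% and 14.6% of all genes tested), with a median log2 fold change of 0.049.

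Of the RB family, *Rbl1*, for p107, rose. It was at 43.0, 43.5 and 40.9 CPM in WT and at 44.9, 50.5 and 49.3 CPM in KO, 13.5% higher (log2 fold change 0.18, standard error 0.057, adjusted p = 0.019, edgeR). KO a lay close to the WT libraries, and the call was lost with DESeq2 (adjusted p = 0.0503), without KO b (0.10) or without KO c (0.084). *Rb1* was at 47.1, 49.3 and 43.4 CPM in WT and at 47.3, 48.1 and 45.1 CPM in KO, and the WT range enclosed all KO values (log2 fold change 0.0019, 95% interval -0.11 to 0.12, edgeR). *Rbl2*, for p130, had a log2 fold change of 0.013 (95% interval -0.096 to 0.12). As shares of the 3 RB family transcripts per exon length, *Rbl1* was at 31.5% ± 0.17 in WT and 34.1% ± 1.40 in KO (SD, n = 3 each).

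Of the 12 transcriptional cyclins and CDKs 1 was lower and 1 higher (16.7% called, beside 30.3% of all genes tested). Their median log2 fold change was -0.0022. *Ccnt2* (chromosome 1, 127774164 to 127808061, plus strand) encodes cyclin T2, a partner of CDK9 in the elongation factor P-TEFb. It was at 79.2, 74.9 and 73.5 CPM in WT and at 93.8, 93.0 and 91.6 CPM in KO. The groups were far apart relative to their spread, and the increase of 22.3% had the smallest adjusted p of the 43 genes (log2 fold change 0.29, standard error 0.044, adjusted p = 1.12e-05, edgeR). The gene of the other T-type cyclin, *Ccnt1*, was at 32.4 to 33.7 CPM in WT and at 31.2 to 32.8 CPM in KO. Per exon length *Ccnt2* made up 63.0% ± 1.25 of the T-type cyclin transcripts in WT and 68.2% ± 0.42 in KO (SD, n = 3 each), without overlap. *Cdk9*, their kinase, was at 32.7, 32.5 and 28.1 CPM in WT and at 28.7, 28.2 and 28.9 CPM in KO. WT c lay with the KO libraries, and the gene was called only when WT c was left out (log2 fold change -0.19, adjusted p = 0.024, edgeR, compared with -0.13 and 0.16 with all libraries).

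*Ccnl1* (chromosome 3, 65946151 to 65958249, minus strand) encodes cyclin L1, which works with CDK11 and acts in splicing. It was at 56.2, 57.8 and 56.7 CPM in WT and at 48.0, 49.6 and 49.9 CPM in KO, a decrease of 13.6% (log2 fold change -0.21, standard error 0.050, adjusted p = 0.0021, edgeR). Of its exon bases, 7.4% overlap a gene on the opposite strand. *Ccnl2* was at 99.5 to 100.2 CPM in WT and at 94.6 to 100.4 CPM in KO, and was not called. *Cdk11b*, for the kinase partner, was at 57.1 ± 0.84 CPM in WT and fell to 46.5 ± 2.27 CPM in KO (SD, n = 3 each; log2 fold change -0.30, adjusted p = 9.49e-05, edgeR). Among the others, *Cdk12* had a log2 fold change of 0.089 (adjusted p = 0.094) and *Ccnc*, a cyclin of the Mediator kinase module, one of 0.094 (adjusted p = 0.47). *Ccnh* and *Cdk7* of the CDK-activating kinase, *Cdk8*, *Ccnk* and *Cdk13* lay between -0.023 and 0.023 (log2).

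None of the 3 remaining genes was called. *Ccni*, for cyclin I, was at 192 to 215 CPM in WT and at 197 to 201.5 CPM in KO, and 14.2% of its 50-base words also occur in other annotated genes. *Ccng2*, for cyclin G2, was at 29.0 to 31.9 CPM in WT and at 29.2 to 33.1 CPM in KO. *Cdk5*, a kinase best known from neurons, was at 13.3 to 17.0 CPM in WT and at 15.6 to 16.9 CPM in KO. Without WT c, *Ccni* and *Cdk5* gained a call, *Ccni* lower (log2 fold change -0.092, adjusted p = 0.014, edgeR) and *Cdk5* higher (log2 fold change 0.24, adjusted p = 0.039, edgeR).

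Levels between genes can be set side by side only per length. In CPM per kilobase of exon, WT hearts held most of *Ccni*, at 62.3 ± 3.78, and *Ccnd2*, at 50.7 ± 0.82, followed by *Ccnd1* at 37.4 ± 1.23 and *Cdk4* at 36.1 ± 0.67 (SD, n = 3 each). The order of *Ccnd1* and *Cdk4* lies within about 1 SD. Dividing by the longest transcript in place of all exon bases put *Ccnd2* first and *Cdk4* above *Ccnd1*. *Ccna2* followed at 32.3 ± 1.26 and *Ccnb2* at 27.6 ± 1.91 per kilobase of exon, while *E2f2* was the lowest at 2.00 ± 0.21. By the longest transcript *Ccnb2* ranked 9 in place of 6, and *Ccna2* and *E2f2* kept their ranks. Shares within a family per length depend on this choice too. *Cdk4* made up 92.1% ± 0.29 of the *Cdk4* and *Cdk6* transcripts per length in WT and 91.4% ± 0.44 in KO. Within the INK4 pair, *Cdkn2c* made up 76.6% ± 1.38 per length in WT and 72.2% ± 1.52 in KO, with no overlap between the groups and no test of the share. In KO hearts *Ccni* and *Ccnd2* also led, followed by *Cdk4* at 35.0 ± 0.62 and *Ccnd1* at 33.3 ± 0.63 (SD, n = 3 each).

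**Figure D4:**
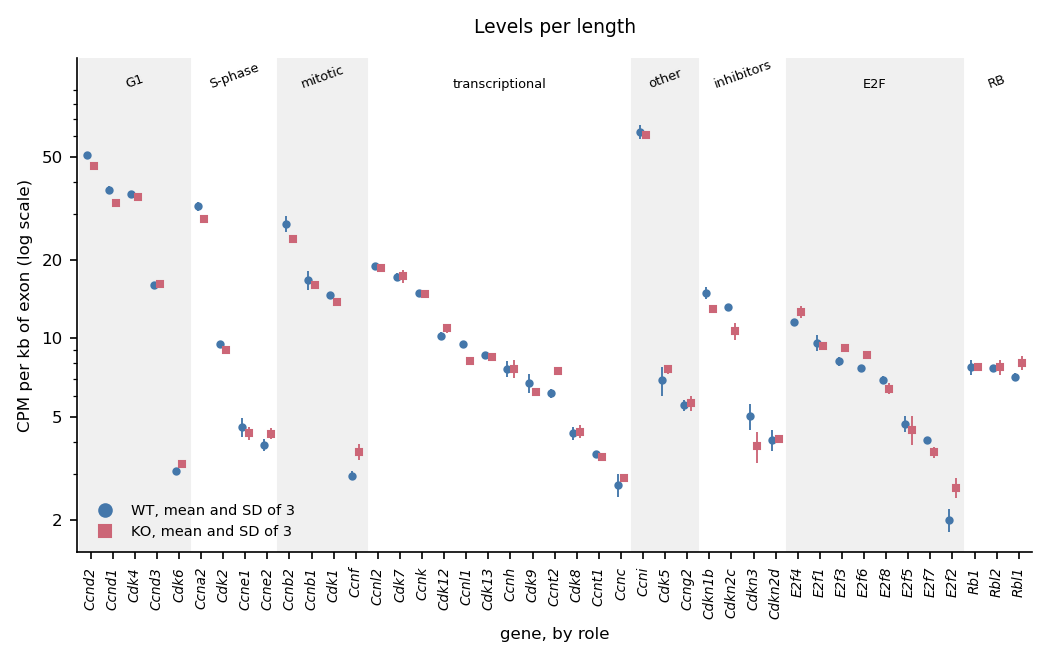
Level of each of the 43 genes in CPM per kilobase of exon (vertical axis, log scale), as the mean and SD of 3 WT and of 3 KO libraries, ordered within each role by the WT level. *Ccni*, *Ccnd2*, *Ccnd1* and *Cdk4* lead and *E2f2* is lowest. The range over the 43 genes far exceeds the difference between genotypes for any gene. Genes close in level, such as *Ccnd1* and *Cdk4*, differed in order between genotypes.

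Other genes of the pathway were taken from lists of 140 genes, of which 133 could be tested. Of these, 30 were lower and 10 higher (30.1% called in all, beside 30.3% of all genes tested). With DESeq2 19 were lower, and without any 1 of the KO libraries 20. In the G2/M list 13 of 28 genes were lower, beside 15.7% of all genes tested, and 0 were higher, with a median log2 fold change of -0.13. It includes *Racgap1*, *Kif20a*, *Nusap1*, *Prc1*, *Cdca8*, *Tpx2* and *Top2a*, for which the study gives qPCR primers. The qPCR primers of the study also cover *Cdk1*, *Ccnd1*, *Ccnd2* and *E2f7*, described above, and the further cyclin gene *Ccng1*. The study drew its cell division qPCR genes from those lower in these same data and occupied by NFYa. They are therefore not an independent list. The largest changes of the G2/M list were in *Cenpf*, which fell from 264 ± 4.98 to 211 ± 6.46 CPM, and *Cdca3*, from 44.8 ± 0.80 to 35.9 ± 1.95 CPM. *Racgap1* followed, from 112 ± 3.03 to 95.7 ± 3.80 CPM, and *Kif20a*, from 65.7 ± 2.44 to 57.6 ± 3.36 CPM (SD, n = 3 each). *Mki67*, the gene of the proliferation marker Ki-67, fell from 614.5 ± 24.6 to 546 ± 10.3 CPM (log2 fold change -0.17, adjusted p = 7.92e-05, edgeR). Summed over the 28 genes, the G2/M level was 2890 to 2936 CPM in the WT libraries and 2617 to 2657 CPM in the KO libraries.

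Of 24 E2F-regulated S-phase genes, 2 were lower (*Rrm2*, log2 fold change -0.17, and *Mcm4*, -0.13) and 1 higher (*Cdc6*, 0.26), with a median of -0.020. Beside 30.3% of all genes tested, 12.5% of this list were called and 13.3% of the partners of E2F and RB proteins. The shares were 30.4% for regulators of CDK activity, 34.8% for partners of the transcriptional CDKs and 29.4% for further cyclins and CDKs. Of 15 partners of E2F and RB proteins, *Tfdp2* (-0.16) and *Rbbp4* (-0.13) were lower and 0 were higher. *Foxm1*, a driver of G2/M genes, had a log2 fold change of -0.11 (adjusted p = 0.089, edgeR) and *Mybl2* one of 0.060 (adjusted p = 0.69, edgeR). Of 23 regulators of CDK activity, 4 were lower and 3 higher. *Cdkn1a* showed the largest decrease, and *Cables1* (0.45), *Cdc14a* (0.29) and *Cdc14b* (0.29) the increases. Of 23 partners of the transcriptional CDKs, 7 were lower and 1 higher, led by *Ell* (-0.29), *Aff4* (-0.28) and *Med13l* (-0.21) and, upward, *Mepce* (0.33). Further cyclins and CDKs gave 2 lower and 3 higher genes of 17, *Cdk11b* and *Ccng1* (-0.20) lower, *Ccnjl* (0.34), *Cdkl1* (0.30) and *Cdk10* (0.27) higher. Of the NF-Y subunits, *Nfya* rose from 43.1 ± 2.32 to 51.8 ± 2.39 CPM and *Nfyc* from 68.5 ± 1.44 to 79.8 ± 4.22 CPM, while *Nfyb* was not called (log2 fold change -0.017). For *Nfya* RNA the log2 fold change was 0.27 (adjusted p = 0.000692, edgeR). The study saw no change of this RNA by qPCR in KO hearts and reported less NFYa protein, which is a different measure.

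**Figure D5:**
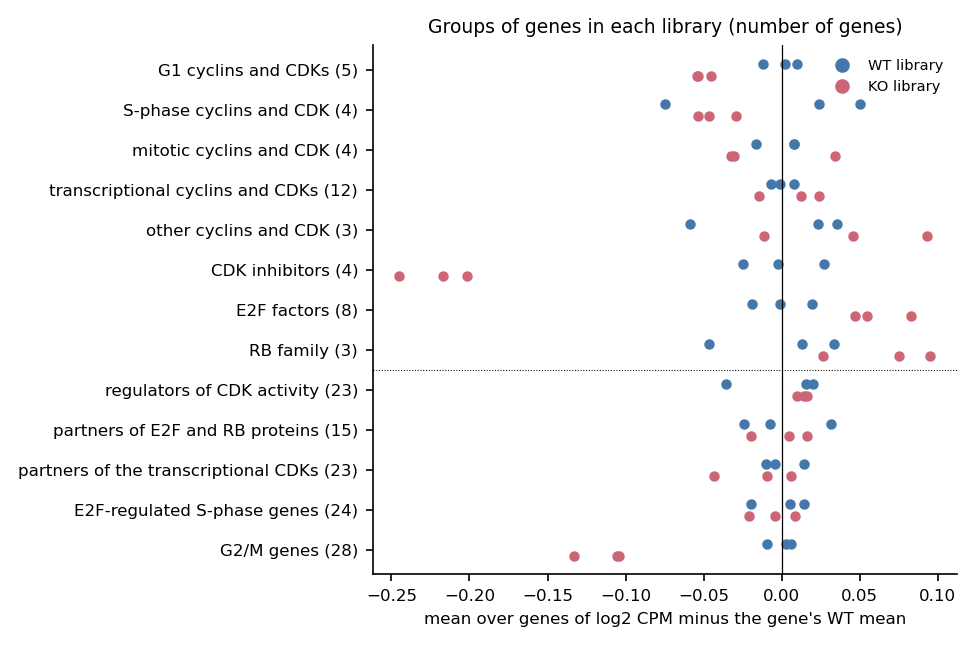
Mean over the genes of each group of log2 CPM minus the gene's WT mean (horizontal axis), 1 point per library, with the groups of the 43 genes above the dotted line and other lists of the pathway below it. All 3 KO libraries lie between -0.25 and -0.20 for the CDK inhibitors and between -0.13 and -0.10 for the G2/M genes, apart from the WT libraries; by this measure, but not by summed CPM, the genotypes overlap for both S-phase lists.

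Library by library, the mean log2 deviation from WT of the 4 CDK inhibitors was -0.20, -0.22 and -0.25 in KO a, b and c, compared with -0.025 to 0.027 in WT. For the 5 G1 genes it was -0.045, -0.054 and -0.054 in KO and -0.012 to 0.0097 in WT, and for the 8 E2F factors 0.055, 0.083 and 0.047 in KO and -0.019 to 0.020 in WT. By this measure these 3 groups did not overlap between genotypes, whereas the S-phase, mitotic, transcriptional and RB groups did. By summed level, which the most counted genes dominate, the S-phase group (209 to 225 CPM in WT, 198 to 204 CPM in KO) and the transcriptional group (717 to 725 CPM in WT, 727 to 745 CPM in KO) did not overlap either. The 24 E2F-regulated S-phase genes summed to 1206 to 1228 CPM in WT and 1172 to 1191 CPM in KO.

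In these bulk samples, fewer cells of a type and less RNA per cell cannot be told apart. Markers of the cell types of the heart also differed between the genotypes. For comparison, 15.7% of all genes tested were lower and 14.6% higher. Of 10 cardiomyocyte markers 7 were lower and 2 higher, and their summed level was 62430 to 66070 CPM in WT and 57830 to 58630 CPM in KO. Of 5 atrial markers tested 0 were lower and 3 (*Myl4*, *Myl7* and *Nppa*) were higher, with sums of 586 to 594 CPM in WT and 999 to 1022 CPM in KO. The others, *Nr2f1* (log2 fold change -0.23, 2.40 CPM in WT) and *Nr2f2* (0.059, 27.8 CPM in WT), were not called. Fibroblast markers were lower for 4 of 8 genes (3946 to 3992 and 3677 to 3746 CPM), endothelial markers lower for 3 and higher for 1 of 8 (1226 to 1230 and 1197 to 1214 CPM), and epicardial markers higher for 2 of 6 (139.5 to 141 and 149.6 to 163 CPM). Smooth muscle and pericyte markers were lower for 2 and higher for 1 of 6 (761 to 793 and 761 to 771 CPM). Immune markers were lower for 2 of 8 (41.2 to 44.8 and 38.3 to 44.6 CPM). These 2 were *C1qa*, which fell from 6.77 to 3.94 CPM, and *Cd14*, which fell from 2.22 to 0.188 CPM, near the limit of detection. The immune list was split in direction, with 4 negative and 4 positive log2 fold changes. Of 3 erythroid markers tested 1 was lower and 1 higher (33.5 to 35.5 and 35.8 to 43.0 CPM), and 4 globin genes were not tested here. Ribosomal RNA (*Rn45s*) made up 2.21% to 2.48% of WT counts and 2.70% to 2.79% of KO counts. The part of these differences in the cyclin, CDK and E2F results was not tested.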

How the data were processed

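RNA-seq of E18.5 hearts of WT and *Pkm1*-KO embryos, 3 libraries each, was analysed. The authors depleted ribosomal RNA and sequenced paired ends, and per the submitters' processing notes the reads were trimmed with cutadapt 1.18, aligned with HISAT2 to mm10 and assembled with StringTie. The counting program, its annotation and its strand setting are not given in the sources used here. The authors deposited, for each library, the raw number of reads (counts) on each gene symbol. The same table holds the authors' own comparison (log2 fold changes, p-values, false discovery rates and mean log2 CPM), which was not used.

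Counts were tested in R 4.3.3 with edgeR 4.0.16: filterByExpr (13804 of 13809 genes kept), TMM scaling, and the quasi-likelihood test of KO against WT without covariates, with p-values adjusted over all genes tested by the method of Benjamini and Hochberg and a threshold of 0.05. No table column carries a replicate number, and no 2 libraries agreed within sampling noise. Depth was 15567624 to 19875546 counts, and the common biological coefficient of variation was 3.42%. Group deviations used log2 CPM with a prior count of 2. Lengths and overlaps came from the GENCODE annotation of GRCm38, and promoter windows from RefSeq on GRCm38.p6, which were searched on both strands. Tests were tried on simulated counts. Alternatives were RLE size factors, TMM without *Rn45s*, DESeq2 1.42.0, edgeR's exact test, limma 3.58.1 with voom, no filter, a minimum of 10 counts in each library, autosomal genes alone, WT a and WT b summed, each library left out in turn, a change of at least 1.2-fold, the longest transcript as length, and motifs on the forward strand only.

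Named are all called genes and a fixed set of core members with every library's value, the other members by range, and up to 4 genes per pathway list with the largest change among those called without overlap, plus *Mki67*, *Foxm1*, *Mybl2*, *Cdkn1a*, *Cdkn1c*, *Ccng1* and *Nfya*. The members and lists were chosen with earlier results of these data known. Plots were made in Python 3.11.15 (matplotlib 3.10.9).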

Additional observations from a re-analysis of the deposited data

How the results depend on the processing

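No paired analysis was possible because no header in the table names a replicate. Of the 15 called genes, 9 (*Ccnd1*, *Ccnd2*, *Ccna2*, *Ccnf*, *Ccnl1*, *Ccnt2*, *Cdkn1b*, *Cdkn2c* and *E2f2*) were called in each of 15 alternative analyses, and 0 of the 15 changed direction. Leaving out 1 library at a time, 6 to 10 of the 43 genes were lower and 4 to 7 higher, fewest lower without KO c and most without WT c. Requiring a change of at least 1.2-fold left 2 lower and 3 higher genes. DESeq2 called 19 of the pathway genes outside the set lower, compared with 30, and leaving out a library called 20 to 32 lower and 7 to 11 higher. *Pkm* stayed between -1.30 and -1.26.

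In the same leave-one-out fits, the median log2 fold change ranged from -0.0601 to -0.0288 for the G1 genes, from -0.0274 to 0.0109 for the transcriptional genes, from -0.0321 to 0.0654 for the other cyclins and CDK, from -0.276 to -0.224 for the inhibitors and from 0.0300 to 0.0831 for the E2F factors. Direction reversed in some setting for 12 genes that were not called. Leaving out a library moved *Ccnd3* from -0.0033 to 0.0126, *Ccnh* from -0.0619 to 0.0535, *Ccnk* from -0.0331 to 0.0089, *Ccnl2* from -0.0417 to 0.0022, *Cdk7* from -0.0385 to 0.041, *Cdk8* from -0.009 to 0.07, *Ccng2* from -0.0321 to 0.0654, *Cdkn2d* from -0.0621 to 0.0525, *E2f1* from -0.0856 to 0.0102, *E2f5* from -0.1677 to 0.0121, *Rb1* from -0.0456 to 0.0442 and *Rbl2* from -0.0437 to 0.0484. With WT a and WT b summed, *Ccnh* was at -0.0009 and *Cdk7* at -0.0026. The median WT level of the 43 genes was 7.75 CPM per kilobase of exon and 11.0 CPM per kilobase of the longest transcript. On the forward strand only, 36.8%, 71.1%, 7.89% and 13.2% of the promoter windows held CCAAT, the GC box, an E2F match and a CHR match. The cause of these changes was not tested, beyond the fewer libraries or the stricter rule that an alternative uses.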
